A study of Homo sapiens with 3 samples.

Results

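The miRNA pool of a doxycycline-treated empty-vector HEK293 line was described from a single small RNA library, 1 of the 3 libraries of the study. Its members were the mature miRNAs of the deposited count table, with entries of the same mature name summed over their hairpins and the entries of synthetic hairpins left out. Of 2580 mature miRNAs listed for 1873 hairpins, 1049 had at least 1 count, which is 40.7% of them. The cells were Flp-In T-REx 293, an established HEK293 derivative of human embryonic kidney origin into which a tetracycline repressor has been built. They had been transduced with a lentiviral vector that held a doxycycline-inducible GFP cassette but no miRNA hairpin. They were kept under 1 mg/mL Geneticin for 6 days and under a lower concentration after that. Doxycycline was given at 1 ug/mL over 7 days in medium with 10% FBS. The miRNA-expressing lines of the study received this treatment as well. The study used this line as the control for lines that make miR-1 or miR-122 from a vector. No replicate library was analysed, so nothing here measures how far another culture or another library would differ. Every interval given for a share of counts is a 95% Wilson interval for counting error alone. The reads had no molecular identifiers, and a count is therefore a sequenced read and not an independent molecule.

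A miRNA gene is transcribed into a hairpin that is cut in the nucleus and again in the cytoplasm, which releases a short duplex with a strand from each arm, the 5p and the 3p strand. An Argonaute protein keeps one strand as the guide and the other, the passenger, is lost. The guide finds target mRNAs mainly through its seed, the bases just behind its 5′ end, so miRNAs with the same seed form a family with overlapping targets, and hairpins that lie close together on a strand are often cut from a common transcript.

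The sequences of the most abundant miRNAs are given first because families and arms are read from them. They were taken from RefSeq (GRCh38.p14), run 5′ to 3′, and show the seed, bases 2 to 8, in capitals. A RefSeq sequence was matched to 2275 of the 2580 listed names, to 918 of the 1049 detected and to 18 of the 20 most abundant (all but miR-10b-5p and miR-30d-5p), and the matched names held 91.6% of all counts. The first block holds the leading miRNA and then examples of the miR-148 and miR-92 families, with miR-363-3p shown as the member from the chromosome X cluster described later.
miR-10a-5p: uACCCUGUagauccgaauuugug
miR-148a-3p: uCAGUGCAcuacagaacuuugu
miR-148b-3p: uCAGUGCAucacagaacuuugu
miR-92a-3p: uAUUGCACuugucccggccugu
miR-25-3p: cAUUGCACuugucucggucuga
miR-363-3p: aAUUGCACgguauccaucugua

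The second block holds the miR-17 family, whose members come from several clusters, and the let-7 family.
miR-20a-5p: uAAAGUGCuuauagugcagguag
miR-93-5p: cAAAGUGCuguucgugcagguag
miR-17-5p: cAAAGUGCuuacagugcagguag
miR-106b-5p: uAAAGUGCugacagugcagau
let-7a-5p: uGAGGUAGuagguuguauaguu
let-7f-5p: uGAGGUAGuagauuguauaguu
let-7g-5p: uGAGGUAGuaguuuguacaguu

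The third block holds abundant miRNAs with seeds outside these families, among them miR-423-3p and miR-378a-3p, which begin with A where most others begin with U.
miR-7-5p: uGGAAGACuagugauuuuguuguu
miR-21-5p: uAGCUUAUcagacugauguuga
miR-423-3p: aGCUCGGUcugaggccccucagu
miR-378a-3p: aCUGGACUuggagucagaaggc

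The library held 1636481 counts outside the synthetic hairpins, so that a single count stood for 0.611 RPM (counts scaled to the library total) and a count of 0 allowed up to 3 counts, or 1.83 RPM. The pool was concentrated in few miRNAs. The 10 most abundant held 51.0% of the counts (50.9% to 51.1%), the 20 most abundant 69.6% and the 100 most abundant 95.6%. It took 25 miRNAs to reach 75% of the counts, 58 to reach 90% and 210 to reach 99%. At the other end, 793 miRNAs had at least 1 and under 100 counts, and all names under 100 counts held 0.594% of the counts together. The median count of a detected miRNA was 8, the first rank was 4.99-fold above the tenth, and it was 186-fold above rank 100, which had 1135 counts. There were 3 miRNAs with at least 100000 counts, 33 with at least 10000 and 106 with at least 1000, and the last group held 96.0% of the pool. No count at all was listed for 1509 names, and 22 more had a fraction of a count.

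**Figure D1:**
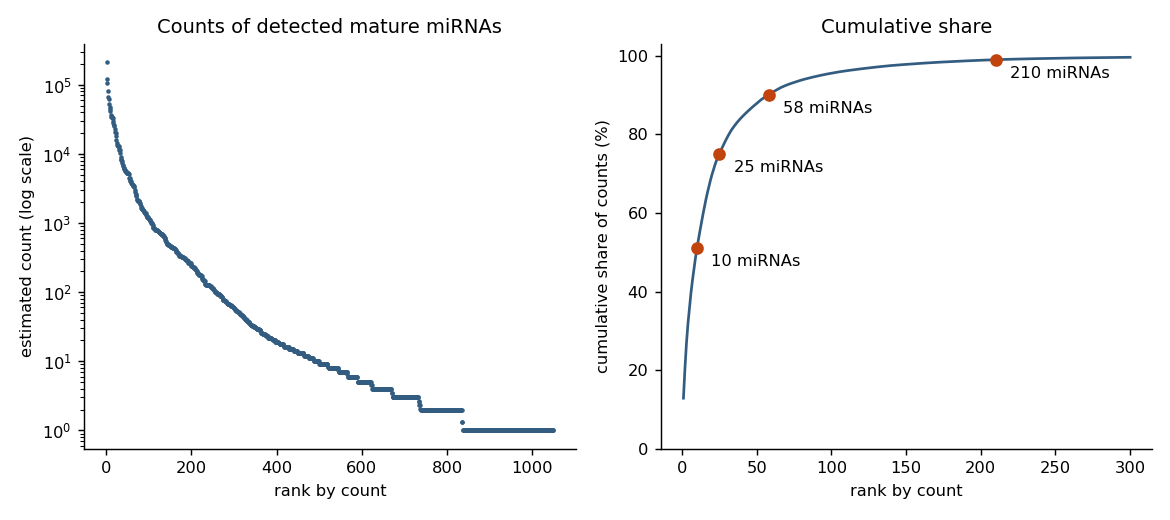
Left, the estimated count of each of the 1049 detected mature miRNAs against its rank, on a log count axis; right, the cumulative share of counts in percent over the first ranks, with points where 50%, 75%, 90% and 99% are reached. The points lie at 10, 25, 58 and 210 miRNAs, and the left curve ends in a long flat step of miRNAs with 1 count.

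The leading miRNA, miR-10a-5p, had 210754 counts, or 12.9% of the pool (12.8% to 12.9%). It is made from an intron of the homeobox gene HOXB3 (GRCh37, chromosome 17, 46657200 to 46657309, minus strand) and is known to target HOX mRNAs. Its sister miR-10b-5p, from an intron of HOXD3, ranked 6 with 61639 counts, so the levels of this pair, which sit in different HOX clusters, were 3.42-fold apart. The miRNA miR-148a-3p followed the leader with 122214 counts (7.47%). Its gene is intronic to a long non-coding RNA (GRCh37, chromosome 7, 25989539 to 25989606, minus strand), and it is known as a repressor of DNA methyltransferase mRNA. Rank 3 was miR-92a-3p with 104530 counts (6.39%), and rank 4 was miR-7-5p with 82045 counts (5.01%), a miRNA best known from neuroendocrine cells and brain. These came from 2 and 3 hairpins, respectively, which cannot be told apart by the mature sequence.

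Behind them stood miR-20a-5p with 65565 counts, a product of the miR-17-92 transcript, and miR-21-5p with 52957 counts, a miRNA of many cultured and tumour cells. MIR21 overlaps an exon of VMP1 (GRCh37, chromosome 17, 57918627 to 57918698, plus strand). Next were miR-25-3p with 47625 counts, miR-423-3p with 45072 and miR-93-5p with 42231, which closed the first 10. MIR25 and MIR93 lie in MCM7, a gene of the DNA replication helicase, and MIR423 overlaps an exon of NSRP1 (GRCh37, chromosome 17, 28444097 to 28444190, plus strand). The next 10 ran from miR-30d-5p with 36114 counts to miR-218-5p with 23178, and steps between them were small. Ranks 12 and 13, miR-30a-5p with 34674 counts and miR-378a-3p with 34578.5, differed by 95.5 counts, less than the 516 counts of their 95% counting error. All other neighbours among the first 20 differed by more than their counting error. The gene of miR-378a-3p lies in an intron of PPARGC1B, a regulator of mitochondrial metabolism.

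The first 20 also held miR-103a-3p with 33741.7 counts, whose hairpins lie in introns of the pantothenate kinase genes PANK2 and PANK3. They held miR-26a-5p with 30202 counts, from introns of the phosphatase genes CTDSP2 and CTDSPL, and miR-218-5p, from introns of the axon guidance genes SLIT2 and SLIT3. In each of these a host gene family and its miRNA are paralogous, and the reads of the mature form do not say which host they came from. The remaining members of the first 20 were let-7a-5p with 32662.2 counts, miR-17-5p with 28302, let-7f-5p with 26015 and miR-30e-5p with 25311, and they belong to families described next.

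Grouped by seed, the pool was again carried by few groups. Among 794 seed families with a count, 6 held 50% of the matched counts and 32 held 90%, and 709 families had a single detected member. The miR-10a-5p seed ranked first with 12.9% of all counts and 1 matched member, since miR-10b-5p was not matched and entered no seed family. When miR-10a-5p and miR-10b-5p were joined by name, the pair held 272393 counts, or 16.6%.

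The second family, with the seed AUUGCAC, held 160516 counts or 9.81% (9.76% to 9.85%). Within it, miR-92a-3p gave 65.1% of it and miR-25-3p 29.7%. Smaller parts came from miR-32-5p with 3339 counts, miR-363-3p with 2954 and miR-92b-3p with 2068. The remaining member, miR-367-3p, a miRNA of pluripotent stem cells, had 0 counts. The family was thus present in 5 of its 6 listed members.

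The miR-17 family, with the seed AAAGUGC, held 143100 counts or 8.74% (8.70% to 8.79%), and its members are known for cell cycle targets such as CDKN1A. No single member held most of it. Its counts were spread over miR-20a-5p with 45.8%, miR-93-5p with 29.5% and miR-17-5p with 19.8%. There were 5377 counts of miR-106b-5p, 945 of miR-20b-5p and 680 of miR-106a-5p. The listed members miR-519d-3p and miR-526b-3p, from the placental cluster of chromosome 19, had 0 counts.

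The opposite pattern was seen in the miR-148 family, with the seed CAGUGCA, which held 134463 counts or 8.22% (8.17% to 8.26%). There, miR-148a-3p gave 90.9%, miR-148b-3p 11383 counts and miR-152-3p 866 counts. MIR148B lies in an intron of COPZ1, a coatomer gene (GRCh37, chromosome 12, 54731000 to 54731098, plus strand).

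The let-7 family, with the seed GAGGUAG, held 82091 counts or 5.02% (4.98% to 5.05%). It is known as a brake on growth and stem cell genes such as LIN28B, HMGA2 and RAS genes, and is held back in many embryonic cells. In this library 9 of its 11 listed members were detected. The most abundant, let-7a-5p and let-7f-5p, gave 39.8% and 31.7% of the family, and let-7g-5p had 13010 counts. Lower members were let-7i-5p with 4092 counts, let-7e-5p with 2654, let-7c-5p with 1641.75 and let-7b-5p with 1388. The lowest detected were miR-98-5p with 451 counts and let-7d-5p with 177, while miR-4458 and miR-4500 had 0. Members of this family differ by as little as a base outside the seed, and the counts of let-7 members with fractions came from reads divided between entries.

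The sixth family was miR-7-5p alone, with 82045 counts, level with the whole let-7 family within their intervals (4.98% to 5.05% for both). The seed of the miR-30 family held 73188 counts over the matched members miR-30a-5p, miR-30e-5p and miR-30c-5p. By name, with miR-30d-5p among them, the 5 members of this kidney-rich family summed to 110619 counts, or 6.76%, which is above the let-7 and miR-7 totals, so its place depends on which members were matched.

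**Figure D2:**
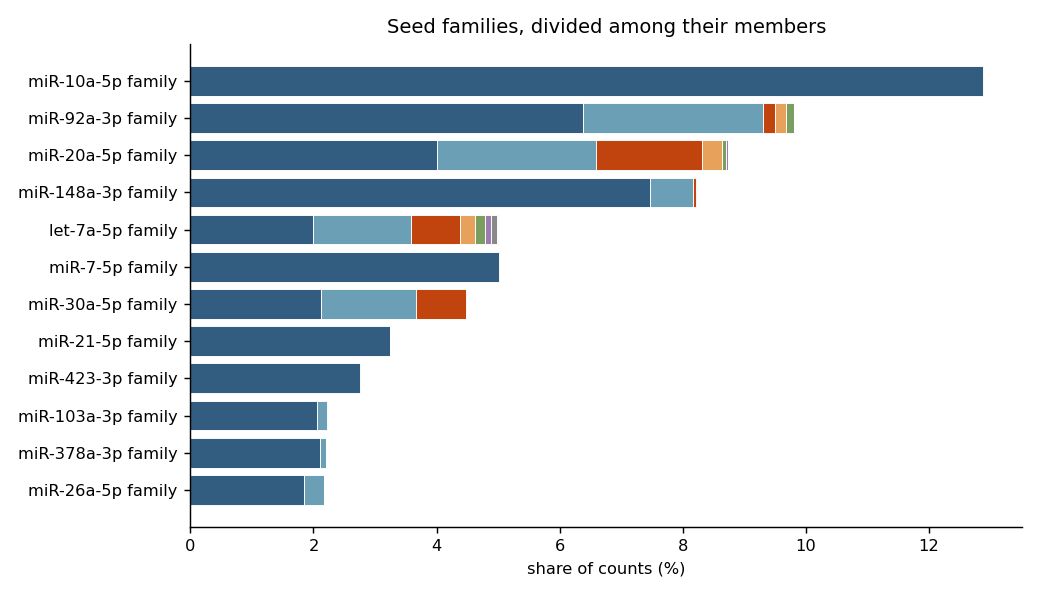
Share of all counts in percent held by the 12 largest seed families, each bar named for its most abundant member and divided into its members by colour. The miR-10a-5p and miR-7-5p bars have 1 member each, the miR-148a-3p bar is mostly 1 member at 90.9%, and the miR-20a-5p and let-7a-5p bars are divided among several.

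Hairpins within 10 kb of the next on the same strand were grouped into clusters, with positions in GRCh37. Of the 1873 hairpins, 1450 were placed by an exact match of their sequence and 280 by the gene annotation, and the placed ones held 99.04% of the counts. There were 90 clusters of at least 2 hairpins, with 327 hairpins and 40.5% of the counts, and 17 of them held at least 10000 counts each. The most abundant was miR-17-92 on chromosome 13 (92002859 to 92003645, plus strand, in the non-coding host MIR17HG), a transcript known to drive proliferation. It held 155602 counts as the reads had been divided, 9.51% of the pool (9.46% to 9.55%). Its 6 hairpins differed 39.3-fold although they share a transcript. The hairpins mir-20a with 65623 counts and mir-92a-1 with 54173 stood above mir-17 with 28612, and mir-18a with 3779.5, mir-19b-1 with 1746 and mir-19a with 1669 lay far below. The miRNAs miR-92a-3p and miR-19b-3p are also made by the paralogous cluster on chromosome X, and how their reads are assigned changed the size of the cluster. Without them miR-17-92 held 6.11% of the counts, and with all of them 12.7%.

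The miR-106b-25 cluster on chromosome 7 (99691183 to 99691697, minus strand) lies within MCM7 and held 100507 counts, or 6.14% (6.10% to 6.18%). All of its mature forms have a single hairpin, so this value did not rest on divided reads. Here mir-25 with 48413 counts and mir-93 with 42679 were close to each other, and mir-106b had 9415. The third cluster, miR-106a-363 on chromosome X (133303408 to 133304308, minus strand), held 57033.5 counts, or 3.49%, as divided. Of these, 50650 stood under mir-92a-2, whose main product is shared with chromosome 13. The products found only in this cluster summed to 4636.5 counts, 0.283% of the pool, most of them from mir-363 with 2961, followed by mir-20b with 957, mir-106a with 689 and mir-18b with 28.5. The hairpin mir-19b-2, with 1748 counts, also shared its main product.

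**Figure D3:**
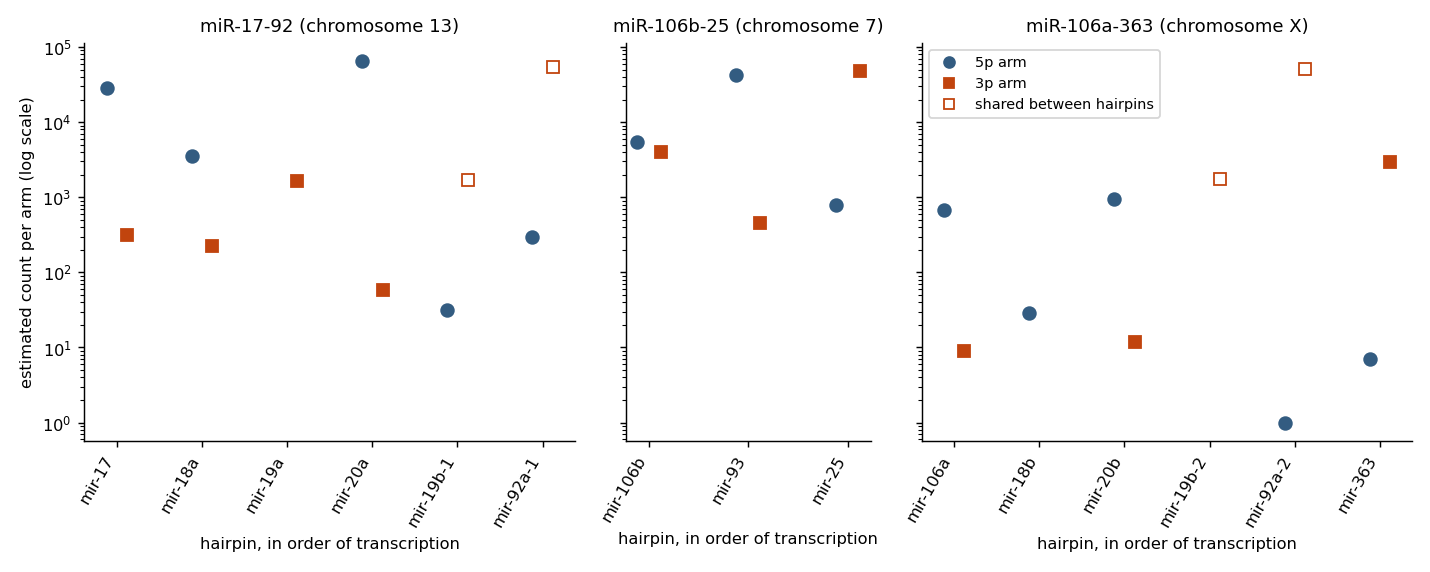
Estimated counts of the 5p arm (blue circles) and 3p arm (orange squares) of each hairpin in the miR-17-92, miR-106b-25 and miR-106a-363 clusters, in order of transcription, on a log axis; open squares mark mature miRNAs shared between hairpins, and arms at 0 are not drawn. In the chromosome X cluster all points above 1000 counts other than miR-363-3p are open, and the arms of mir-106b lie close together at 5377 and 4038 counts.

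The other clusters among the first 6 were pairs. The pair mir-30b and mir-30d had 37539.7 counts, of which mir-30d gave 36203 and mir-30b 1336.67. The pair mir-30e and mir-30c-1, in an intron of the transcription factor gene NFYC (GRCh37, chromosome 1, 41220027 to 41223044, plus strand), had 33399.7 counts, with 26754 for mir-30e and 6645.67 for mir-30c-1. The pair mir-1179 and mir-7-2 on chromosome 15 had 26351 counts, and mir-1179 gave 2 of them. The pairs with mir-30c-1 and mir-7-2 rest on divided reads. As divided, mir-30e stood 4.03-fold above mir-30c-1, but miR-30c-5p has another hairpin, and mir-30c-1 was given 6594.67 of its 13203.3 counts. The counts under mir-7-2 are all a part of miR-7-5p, which is shared with mir-7-1 and mir-7-3, and its own opposite arm miR-7-2-3p had 0 counts. Products found only in that pair summed to 2 counts, so its place among the first 6 comes from the division of miR-7-5p.

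The clusters that followed were carried unevenly too. The sensory cluster of mir-183, mir-96 and mir-182 (GRCh37, chromosome 7, 129410223 to 129414854, minus strand), known from hair cells and photoreceptors, held 26328 counts, with 13191 for mir-182, 11236 for mir-183 and 1901 for mir-96. The cluster of mir-99b, let-7e and mir-125a in SPACA6 on chromosome 19 held 23055, of which mir-99b gave 15147, mir-125a 5218 and let-7e 2690. In the cluster of mir-23b, mir-27b and mir-24-1 on chromosome 9, mir-27b gave 20012.5 of 22860.5 counts, and mir-23b gave 736. At the other extreme were the largest clusters by number of hairpins. The primate cluster on chromosome 19, active in placenta, had 46 hairpins and 17.02 counts in all, with 25 hairpins at 0 and at most 3 counts for a hairpin. The imprinted cluster from mir-379 to mir-656 on chromosome 14 had 42 hairpins and 13 counts, with 36 at 0 and at most 5 counts, for mir-381.

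Most of the pool came from within other genes. Introns of protein-coding genes held 726 placed hairpins and 46.2% of the placed counts, and exons of protein-coding genes held 196 hairpins and 13.2%. Introns and exons of long non-coding RNAs held 18.8% and 18.5% with 218 and 97 hairpins. The remaining 493 hairpins, the second largest number, held 3.30% of the placed counts. They had no protein-coding or long non-coding host gene on their own strand. Some of them lie opposite a gene, as mir-103b-1 does in PANK3. These classes rest on the annotation alone, and from which promoter each hairpin was transcribed was not measured.

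Arm use was read from 159 names with both arms listed and at least 100 counts over both. Names were left out where an arm is listed only with the number of a hairpin, as for miR-92a, miR-7 and miR-218. For let-7a, miR-181a, miR-181b and miR-550a a further arm listed with a hairpin number was not included in the pair, so their arm shares are of the arms without such a number. In 121 names (76.1%) a single arm held at least 90% of the counts, in 54 at least 99%, and the median share of the major arm was 97.7%. The minor arms summed to 2.86% of these counts. The 5p arm was the major one in 91 names (57.2%) and the 3p arm in 68. By counts the balance lay further to the 5p side, with 67.2% of the counts in 5p arms and 32.8% in 3p arms. Both arms had at least 10 counts in 105 names, and the minor arm was at 0 in 15.

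Among the leading miRNAs, miR-10a-5p made up 99.01% of the counts of its hairpin against 2109 counts of the 3p arm. The 3p guide miR-148a-3p faced 1117 counts of its 5p arm, and miR-21-5p faced 99. These hairpins thus kept nearly 1 strand only. Among the names of the first 10 that could be paired, the exception was miR-423, whose 5p arm had 6265 counts beside 45072 of the 3p arm, a 5p share of 12.2% (11.9% to 12.5%), so that its minor arm ranked 41 in the whole pool.

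In 17 names neither arm exceeded 75%. The most abundant of these was miR-106b, where the 5p arm had 5377 counts and the 3p arm 4038, a 5p share of 57.1% (56.1% to 58.1%). The seeds of its strands are unrelated, and its neighbours in the same transcript were one-sided in opposite directions, with 98.95% in the 5p arm for miR-93 and 98.4% in the 3p arm for miR-25.
miR-106b-5p: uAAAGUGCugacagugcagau
miR-106b-3p: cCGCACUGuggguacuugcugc

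The others of at least 1000 counts nearest to equal arms were miR-361 with 854 and 1236 counts of its 5p and 3p arms, miR-708 with 724 and 432, miR-374a with 2065 and 969, and miR-28 with 433 and 1221. All 5 intervals of the 5p share excluded an equal split. At lower depth, miR-576 had 210 and 205 counts and miR-424 had 323 and 370, and the interval of miR-576 (45.8% to 55.4%) included an equal split, as did that of miR-424 (42.9% to 50.3%).

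Among names of at least 1000 counts, the most one-sided toward 5p were miR-186 with 5501 counts, miR-192 with 3634 and miR-450b with 1135, each with a 3p arm at 0. They were followed by let-7g, with 13010 counts of its 5p arm and 1 of its 3p arm, and by miR-99a, with 15622 and 7. With the same minimum, those toward 3p were miR-19a with 1669 counts and miR-29a with 1277, each with a 5p arm at 0. Next came miR-101, where the 5p arm had 3 counts and the 3p arm 20914, then miR-615 with 2 and 7327, and miR-1180 with 2 and 2477. The 3p arm of miR-101 is listed for 2 hairpins, so its arm share is that of a name and not of a single hairpin. A minor arm at 0 could still have had up to 3 counts, and the lower bounds of the major share were 99.93% for miR-186 and 99.66% for miR-450b.

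**Figure D4:**
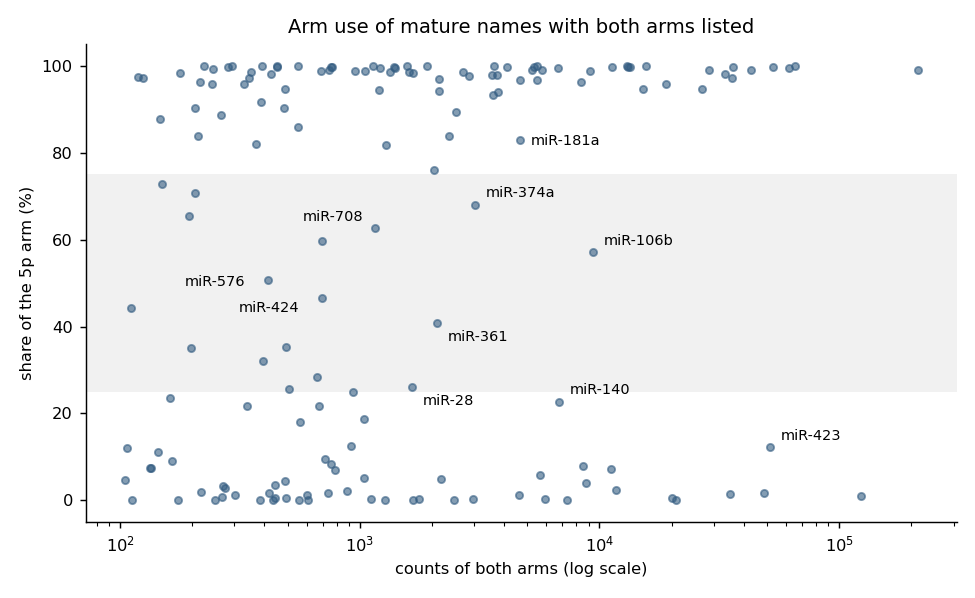
Share of the 5p arm in percent for each of 159 names with both arms listed, against the counts of both arms on a log axis; the shaded band spans 25% to 75%. Most names lie near the top or bottom edge, 17 lie in the band, and miR-106b at 57.1% is the most abundant of them.

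The first base of the guide is known to matter for loading, and Argonaute holds a 5′ U well. Among the 918 detected miRNAs with a sequence, 376 (41.0%) began with U, 248 with A, 202 with C and 92 with G. Weighted by counts, those with U held 73.6% (73.5% to 73.7%), those with A 13.6%, those with C 12.1% and those with G 0.718%. Among the 50 most abundant of them, 34 began with U and 1 with G. The share of names with U was 67.7% among the 31 with at least 10000 counts and 62.5% among the 64 with 1000 to under 10000. It was 30.8%, 42.0% and 38.7% in the lower bins, of 100 to under 1000, 10 to under 100 and 1 to under 10 counts, so that it did not fall evenly with the count. The median GC content was 43.5% in the highest bin and 52.2% in the lowest.

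Between arms of a hairpin the difference was of the same kind. In 97 names with a dominant arm and a sequence for both, the major arm began with U in 58 (59.8%) and the minor arm in 13 (13.4%). In 51 names the major arm alone began with U, in 6 the minor arm alone, in 7 both and in 33 neither. Among the first 20, miR-25-3p, miR-93-5p and miR-17-5p began with C, and miR-423-3p, miR-378a-3p and miR-103a-3p began with A. By length, miRNAs of 22 bases held 50.4% of the matched counts and those of 23 bases 34.3%, with 7.94% and 7.08% for 21 and 24 bases. These are the lengths of the reference sequences and not of the reads.

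The miRNAs known from particular tissues were then looked up in 14 lists. Of 88 distinct miRNAs, 84 were listed outside the synthetic hairpins, 41 of them had at most 3 counts and 24 had 0, while 13 had at least 1000. Among all 2580 names listed, 1509 had 0 counts, 671 had more than 3, 499 at least 10 and 106 at least 1000. A low count was thus common over all names and not particular to these lists. In RNA pooled from a whole culture, a low count from few cells and one from little RNA in each cell cannot be told apart. The cell line was named as embryonic kidney. The lists were chosen with earlier results of these data known, and the kidney list holds miRNAs of ranks 1, 6 and 12. Its counts are therefore a description and no test of that label. All 8 members of the kidney list had more than 10 counts and they held 19.6% of the pool, most of it miR-10a-5p, miR-10b-5p and miR-30a-5p. Of the members known from proximal tubule, miR-192-5p had 3634 counts, miR-194-5p 1040 and miR-215-5p 419, and miR-204-5p had 175. A HOX-linked member, miR-196a-5p, had 8969 counts.

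Epithelial miRNAs of mature kidney and other organs were low. Most of the 2580 names listed were low too, and 499 had at least 10 counts. The miR-200 family, which holds cells in an epithelial state, had 7 counts of miR-141-3p, 6 of miR-200a-3p, 8 of miR-200b-3p and 4 of miR-429, and its highest member was miR-200c-3p with 250. There were 14 counts of miR-203a-3p and 0 of miR-205-5p, which are miRNAs of skin and other layered epithelia. The mesenchymal side was low as well, with 112 counts of miR-143-3p, 2 of miR-145-5p, 9 of miR-199a-5p, 16.66 of miR-199a-3p and 0 of miR-214-3p.

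Neuronal miRNAs were mixed. Of 10 listed, 3 had more than 1000 counts: miR-218-5p, a motor neuron miRNA, with 23178, miR-128-3p with 12244 and miR-9-5p, a miRNA of neural progenitors, with 8030. The 10 summed to 44535 counts, or 2.72% of the pool. That sum leaves out miR-7-5p, which had 82045 counts and is not on the list. It also leaves out miR-124-3p, which had an entry only under a synthetic hairpin. Middle values were 322 counts of miR-9-3p, 319 of miR-132-3p, 315 of miR-129-5p and 85 of miR-138-5p. There were 26 counts of miR-219a-5p, 15 of miR-153-3p and 1 of miR-137. The sensory list was carried by its cluster, with 13145 counts of miR-182-5p, 11203 of miR-183-5p and 1899 of miR-96-5p, while the retinal pigment miRNA miR-211-5p had 0.

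Among miRNAs of blood cells, 8 of 9 had at most 10 counts. Over all 2580 names 499 had at least 10, so low counts were common outside this list too. There were 0 counts of miR-155-5p, from activated lymphocytes, and of miR-223-3p, from granulocytes, 4 of the red cell miRNA miR-451a, and 6 and 3 of the arms miR-142-3p and miR-142-5p, which mark all blood lineages. There were 2 counts of miR-144-3p, 8 of miR-146a-5p and 9 of miR-150-5p, and the remaining member, miR-486-5p, had 434. The endothelial miRNA miR-126-3p, from an intron of EGFL7, was not low, with 5319 counts and rank 50, and its 5p arm had 329.

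Stem cell and placental miRNAs were near 0, as were most names, since 671 of all 2580 had more than 3 counts. All 8 pluripotency miRNAs had at most 3 counts, with 0 for 6 of them, 1 for miR-302b-3p and 2 for miR-372-3p. All 10 of the placental list had at most 3 counts and summed to 9, with the highest, miR-517a-3p, at 3. The testis list of the X-linked miR-506 cluster summed to 9.98 counts, of which miR-514a-3p had 6.99 and miR-508-3p 2. Muscle miRNAs outside the synthetic hairpins had 0 counts for miR-206, miR-208a-3p and miR-208b-3p and 1 for miR-133b, while miR-499a-5p, from an intron of a myosin gene, had 41. In the liver list miR-885-5p had 1 count. The arms of miR-1 and miR-122 had no entry outside the synthetic hairpins, and a read from the cell's own genes would be counted there.

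The pancreatic and ciliated lists were divided. The islet miRNA miR-375 had 505 counts, while the acinar miRNAs miR-217, miR-216b-5p and miR-216a-5p had 43, 37 and 3. Of the 4 listed miRNAs of multiciliated cells, miR-34c-5p had 242 counts and miR-449a 73. By contrast, miR-34b-5p, from the same transcript as miR-34c, had 0 and miR-449b-5p had 1. Only the 5p arm of miR-34b is on the list. Outside the list, miR-449c-5p, whose hairpin lies in CDC20B like those of miR-449a and miR-449b, had 293 counts.

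**Figure D5:**
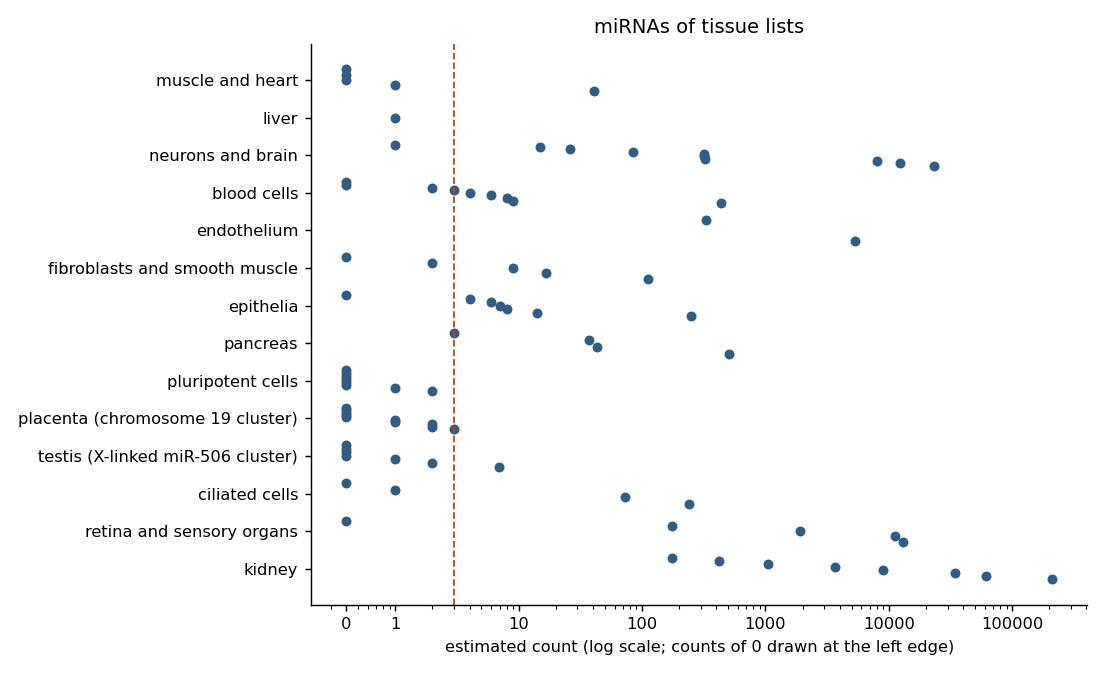
Estimated counts of the listed mature miRNAs of 14 tissue lists, 1 point per miRNA, on a log axis with counts of 0 at the left edge; the dashed line marks 3 counts, the limit that a count of 0 allows. All points of the pluripotent and placental lists lie at or left of the line, all 8 kidney points lie right of it, and the neuronal points spread from 1 to 23178.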

How the data were processed

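Total RNA (1000 ng) was converted to a small RNA library by adapter ligation. Per the study's methods, the authors trimmed adapters, removed reads under 18 nt, collapsed identical reads and counted them with miRDeep2 (version not given in the sources used here) against the human hairpins of miRBase 21 and their synthetic hairpins. The labels name hg19, which that counting did not need. The deposited values used here were estimated counts for each pair of mature miRNA and hairpin, where a read on several hairpins had been divided among them, and the RPM values that the authors derived from them by the library total, synthetic hairpins included. The deposited RPM differed from count over total by at most 0.00652. Ligation favours some sequences, so ranks are of reads.

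Counts of 1 library were used. Entries of a mature name were summed over hairpins: 163 names had several, and in 73 of the 90 with counts the sum was whole within 0.05. Synthetic entries held 353 counts (0.0216% of the library). Detection required 1 count. Shares carry 95% Wilson intervals, and 0 was read as at most 3 counts. Mature sequences came from RefSeq. Hairpins were placed in GRCh37 by exact match of the RefSeq hairpin (1450) or by the GENCODE release 44 annotation (280; lifted to GRCh37), with 143 not placed. With 1 library no test was made. Named miRNAs were the 20 most abundant, the members of the 6 largest seed families and clusters, the 5 names of at least 1000 counts with the most equal arms and the 5 most one-sided in each direction, and the tissue lists. Others, such as further clusters, hosts and arms, were named after their values were seen. The members and lists were chosen with earlier results of these data known. Python 3.11.15, numpy 2.4.6, pandas 2.3.3 and scipy 1.17.1 were used. The Wilson interval, the summing over hairpins and the number of miRNAs holding 50% of counts were tested on simulated data, and the other steps were not.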

Additional observations from a re-analysis of the deposited data

Results flagged for a closer look

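The entries of the synthetic hairpins stood outside the description above and were looked at because 7 of their 10 arms had more than the 3 counts that a count of 0 allows, although the vector of this line held no hairpin. The highest was miR-1-3p with 166 counts, followed by the 5p arm of the artificial hairpin i-2.2 with 120. Lower values were 18 counts of miR-124-3p, 17 of miR-124-5p, 13 of miR-133a-3p, 10 of miR-122-5p and 7 of the 3p arm of i-2.2. The guides miR-1-3p, miR-122-5p, miR-124-3p and miR-133a-3p had no other entry in the table, so a guide read from the cell's own gene could be counted only there, and the source of these reads was not tested.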

How the results depend on the processing

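For 11 results, 31 alternatives were computed, and 1 of them, the family by name, was chosen after seeing the data. Within the limits (1.5 times for counts of miRNAs, the 95% Wilson interval for shares) lay 19, and 12 moved. The intervals of shares of counts are narrow at this depth, so even a small shift of such a share counted as moved. For the share of names with the 5p arm major, the limit of 49.5% to 64.7% was taken over 159 names, which are not replicates. Detection fell to 671 miRNAs when more than 3 counts were required and to 499 at 10 counts. Taking only the highest hairpin of each name shrinks the total, and raised the share of the first 10 to 52.4% and of the largest seed family to 14.97%. The largest family by name held 16.6%. The miR-17-92 cluster held 6.11% without shared miRNAs and 12.7% with all their counts, by construction. Names with an arm at 90% or more numbered 183 of 267 at 10 counts and 68 of 81 at 1000 counts, and the 5p arm was the major one in 67.9% of the latter; the cause was not tested. The share of miRNAs beginning with U was 41.0% with each miRNA counted once and 64.1% of the counts without the 10 most abundant. No paired analysis was possible because the library had no replicate, and for the same reason none could be left out. Values under about 10 counts are limited by depth, and the division of shared reads limits any value given to a single hairpin.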

Other observations

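The opposite arms of guides with 2 hairpins were compared after their values had been seen. A guide made identically by both hairpins cannot be assigned, but its opposite arm often has a sequence of its own. For 13 guides of at least 1000 counts, the authors' division had given the larger hairpin 50% to 57.3% of the guide. The opposite arms were far less even. Of the 11 guides with at least 20 opposite counts, a single hairpin held at least 90% of them in 6 and at least 75% in 9.

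For miR-92a, the hairpin of the miR-17-92 cluster had 292 counts of its 5p arm and the hairpin on chromosome X had 1, although the guide had been divided into 53881 and 50649. For miR-19b the same clusters had 32 counts and 0. For miR-16, a family that restrains the cell cycle, miR-16-2-3p had 1384 counts and miR-16-1-3p 120, which is 92.0% in the first (90.5% to 93.3%). For miR-125b there were 323 counts of miR-125b-2-3p and 0 of miR-125b-1-3p. For miR-181a there were 791 counts from the first hairpin and 109 from the second, and for miR-30c 222 counts of miR-30c-2-3p and 51 of miR-30c-1-3p. For miR-128 all 31 opposite counts came from the first hairpin. The arms of miR-218 had 0 counts for both hairpins, in SLIT2 and SLIT3, so nothing could be said of them. Hairpins can keep different shares of their opposite arm, so these counts are a description of the passenger strands and do not measure how much of a guide each hairpin made.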
